A study of Mus musculus with 6 samples.

Results

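The genes described here encode the voltage-gated sodium and calcium channels and their auxiliary subunits. They were taken from the probe sets with 1 gene symbol on the array's platform table. Every one was used whose symbol is Scn followed by digits and a or b, or begins with Cacna, Cacnb or Cacng. Probe sets listed with several genes and the epithelial sodium channels (Scnn) were left out. The rule gave 85 probe sets of 35 genes, out of 45101 probe sets and 18193 genes on the array. Expression was measured in 2 populations sorted by flow cytometry from the olfactory epithelium of CD1 mice with a fluorescent antibody against ICAM1, an adhesion protein that horizontal basal cells carry. The ICAM1-positive population has 3 arrays and the ICAM1-negative population has 3 arrays, 1 of each from each of 3 litters, at postnatal days 21, 22 and 24 in litters 1, 2 and 3. How many mice of a litter were combined is not given in the sources used here, and litter and age cannot be told apart. All samples share dissociation, antibody staining, sorting and 2 rounds of RNA amplification.

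Voltage-gated channels carry the current of electrical signalling: sodium channels open on depolarisation and drive the action potential, and calcium channels turn the same depolarisation into calcium entry, which triggers transmitter release and other responses. A sodium channel is a pore-forming alpha subunit with small beta subunits that set its gating and place it in the membrane. A calcium channel is an alpha1 pore of the Cav1 (L-type), Cav2 (P/Q-, N- and R-type) or Cav3 (T-type) class, and the Cav1 and Cav2 pores assemble with beta and alpha2delta subunits. In the olfactory epithelium the sensory neurons fire action potentials along an axon to the olfactory bulb, and Scn9a is known as a main sodium channel of these neurons.

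The deposited values are linear intensities, and the median intensity of an array lay between 87.9 and 102.8. On the log2 scale, arrays of the same population had correlations of 0.934 to 0.944, and arrays of different populations 0.762 to 0.794. Icam1 stood at 7246.5, 6817.2 and 6857.1 on the ICAM1-positive arrays and at 13.0, 16.1 and 33.2 on the ICAM1-negative arrays, which follows the sample titles and goes against the free-text descriptions of the samples, in which the populations are exchanged. The sort used this protein, so the value only checks the labels. All 6 horizontal basal cell markers were higher in ICAM1-positive cells, with a summed intensity of 74923 to 79081, against 250 to 678 in ICAM1-negative cells. In ICAM1-negative cells Krt15 stood at 5.6, 2.3 and 9.8 and Col17a1 at 3.4, 8.0 and 62.9. Both were tested only because they are high in ICAM1-positive cells. Macrophage markers were higher too, 8 of 8, with 16524 to 21442 in ICAM1-positive cells and 952 to 1145 in ICAM1-negative cells. Among them C1qa, at 4.1, 7.7 and 7.3 in ICAM1-negative cells, was likewise tested only because it is high in ICAM1-positive cells. Neuronal markers were lower: of 8 markers of mature sensory neurons 7 were lower, Cngb1 being below the array median on every array, and the 8 summed to 4712 to 9915 in ICAM1-positive cells and 75182 to 88156 in ICAM1-negative cells. All 9 markers of immature neurons and 5 of 5 of neuronal precursors were lower as well. Of other cell types, 1 of 4 sustentacular cell markers and 1 of 5 fibroblast markers were higher, 6 of 6 microvillar and tuft cell markers (2 with litter as a paired block) and 1 of 3 lymphocyte markers were lower, and 0 of 4 endothelial markers passed. Over all 16399 genes tested, 20.8% were called lower and 20.6% higher. A short list with 1 call is therefore not set apart from all genes. No marker in these lists was listed at 0. Fewer cells of a type and less RNA per cell cannot be told apart in such sorted populations.

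Of the 35 channel genes, 32 had a probe set above the low-intensity filter (log2 above 4 on at least 3 of the 6 arrays), and the probe set with the highest mean stands for the gene. In ICAM1-positive cells 14 of the 32 (43.8%) were lower and 3 (9.38%) were higher at an adjusted p under 0.05 (limma, unpaired), and 15 did not pass. Of the 3 higher genes, Scn7a passed the filter only through its ICAM1-positive arrays. Over all 16399 genes tested the shares were 20.8% lower and 20.6% higher, 41.4% in either direction. The median log2 difference of the 32 was -1.16, against -0.06 over all genes. Counted as probe sets, 33 of 67 tested (49.3%) were lower and 5 (7.46%) higher, against 18.0% lower and 16.9% higher over all 38694. With litter as a paired block, 15 channel genes were lower and 3 higher, against 22.2% lower and 21.3% higher (43.6% in either direction) over all genes. Under that block Scn7a was no longer called, while Cacna1e was called lower and Cacnb4 higher. The populations did not overlap on 18 genes with lower and 5 with higher values, against 30.1% and 27.8% of all genes. After intensities under the array median were raised to it, 11 were lower and 2 higher, against 23.2% and 21.7% (44.8% in either direction). The count of higher genes was 1 without litter 1, 1 without litter 3, and 5 without ICAM1-negative array 2 or ICAM1-positive array 1. Within the litters, 18 of the 32 were lower in every litter (56.2%, against 38.7% of all genes) and 6 were higher in every litter (18.8%, against 34.9%).

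**Figure D1:**
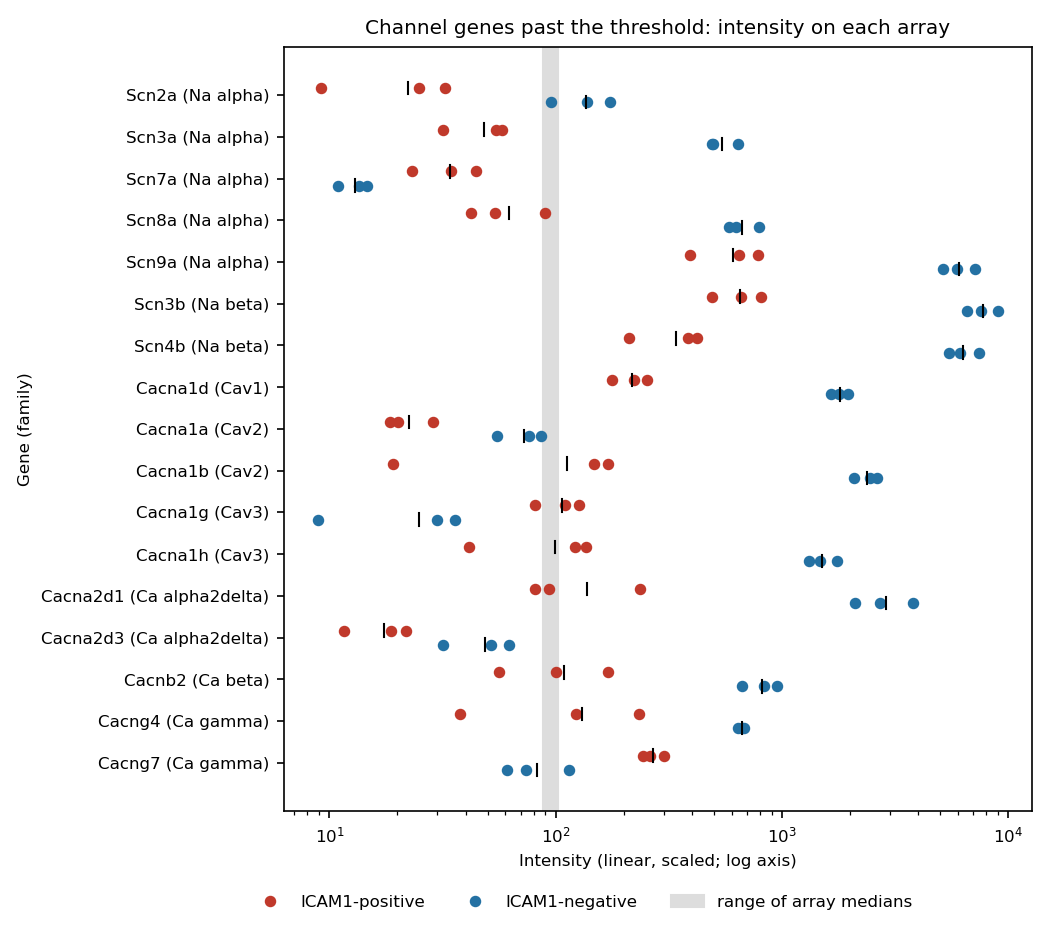
Intensity (linear, scaled, on a log axis) of the 17 channel genes past the threshold on each of the 6 arrays, with ICAM1-positive arrays in red above ICAM1-negative arrays in blue, black ticks at the group means and a grey band from 87.9 to 102.8 for the range of array medians. Of the 17 genes 14 lie lower in ICAM1-positive cells, while Scn7a, Cacna1g and Cacng7 lie higher. The 2 populations overlap for none of them, but the genes were picked by a test on these same values. Of all genes tested, 30.1% did not overlap with lower values and 27.8% with higher values.

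Among the sodium channel alpha subunits, 4 of 7 tested genes were lower in ICAM1-positive cells, against 20.8% of all genes tested. These were Scn9a, Scn3a, Scn8a and Scn2a. Scn9a, the channel of olfactory and pain-sensing neurons, had intensities of 391.6, 645.2 and 780.4 in ICAM1-positive cells of litters 1, 2 and 3, against 5915.6, 7116.7 and 5177.4 in ICAM1-negative cells. All 3 ICAM1-positive arrays lay well below all 3 ICAM1-negative arrays and still above the array median. The group means were 606 ± 197 in ICAM1-positive cells and 6070 ± 979 in ICAM1-negative cells (SD, n = 3 each), a log2 difference of -3.37 ± 0.31 (SE) or 10.3-fold lower (limma adjusted p = 0.000622). The probe set that stands for Scn9a has a suffix by which Affymetrix marks probes that may also match other sequences. The other 4 probe sets of the gene were all lower too, so that the 5 ran from -4.51 to -2.17.

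The promoters of Scn9a, Cacna1b and Scn4b are shown as examples of genes that were far lower in ICAM1-positive cells. That of Scn2b is shown because the gene neighbours Scn4b on the chromosome and did not pass. Each run is the 250 bases before the RefSeq transcription start on the gene's own strand, 5′ to 3′ (build GRCm38.p6, sequences from RefSeq). Capitals mark each match to the E-box letters CAGNTG, on either strand, which is a core bound by helix-loop-helix factors of the kind that direct neuronal differentiation.
Scn9a: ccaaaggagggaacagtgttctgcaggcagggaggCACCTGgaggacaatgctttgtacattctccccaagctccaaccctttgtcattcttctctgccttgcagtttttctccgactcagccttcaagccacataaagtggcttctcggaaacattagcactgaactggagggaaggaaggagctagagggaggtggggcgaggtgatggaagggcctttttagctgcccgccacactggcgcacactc
Cacna1b: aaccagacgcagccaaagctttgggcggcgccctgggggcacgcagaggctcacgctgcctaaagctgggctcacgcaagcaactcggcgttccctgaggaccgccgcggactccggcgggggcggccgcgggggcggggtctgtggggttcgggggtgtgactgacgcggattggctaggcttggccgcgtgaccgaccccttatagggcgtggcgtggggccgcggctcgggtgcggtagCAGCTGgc
Scn4b: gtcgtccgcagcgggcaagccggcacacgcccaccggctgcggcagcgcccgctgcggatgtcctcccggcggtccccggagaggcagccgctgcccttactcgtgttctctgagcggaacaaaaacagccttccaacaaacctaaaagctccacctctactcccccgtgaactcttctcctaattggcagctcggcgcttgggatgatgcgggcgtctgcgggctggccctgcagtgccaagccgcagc
Scn2b: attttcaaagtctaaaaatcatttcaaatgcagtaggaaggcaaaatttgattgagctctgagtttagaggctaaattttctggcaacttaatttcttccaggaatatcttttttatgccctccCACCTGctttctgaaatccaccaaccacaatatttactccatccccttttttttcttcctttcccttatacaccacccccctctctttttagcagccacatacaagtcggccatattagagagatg
The Scn9a run lies at chr2:66634963-66635212 on the minus strand, that of Cacna1b at chr2:24763153-24763402 on the minus strand, that of Scn4b at chr9:45138374-45138623 on the plus strand and that of Scn2b at chr9:45117626-45117875 on the plus strand. GC content was 54.4% for Scn9a, 72.0% for Cacna1b, 66.0% for Scn4b and 38.4% for Scn2b, against a median of 52.4% over 32851 windows. The number of CpG dinucleotides was 5 for Scn9a, 29 for Cacna1b, 23 for Scn4b and 1 for Scn2b, against a median of 6. Promoter windows were matched by symbol for 24 of the 32 tested genes and 11 of the 17 that passed, in 34 and 15 windows, because some genes have several starts. E-box letters were present in 18 of the 34 windows and 8 of the 15, and in 44.8% of all windows. The windows of Cacna2d1, which was far lower too, and of Cacng7, called higher, had 0 E-box matches and are not printed. The palindrome of EBF factors, which act in olfactory neurons (TCCC and GGGA with NN between them), was in 0 of the 34 and in 0.779% of all windows. The homeodomain core TAATTA was in 0 of the 34 and in 4.84% of all. For the element read by the repressor REST, its left part TCAGCACC was in 0 of the 34 (1.32% of all) and its right part GGACAGC in 1, that of Cacnb1 (5.28% of all). Both strands were searched. GGACAGC overlaps an E-box where TG follows it, and a match is only a match of letters in this window.

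Scn3a, a channel of the developing nervous system, stood at 31.9, 58.0 and 54.6 in ICAM1-positive cells and at 490.2, 642.6 and 497.5 in ICAM1-negative cells. The ICAM1-positive arrays were all below the array median, so the difference is given as a bound: Scn3a was at least 5.59-fold lower (log2 difference -3.53 ± 0.29, adjusted p = 0.000457). Scn8a, the channel concentrated at axon initial segments and nodes of Ranvier, stood at 42.3, 54.1 and 89.4 in ICAM1-positive cells and at 788.9, 627.9 and 584.7 in ICAM1-negative cells, at least 6.86-fold lower (-3.49 ± 0.32, adjusted p = 0.000637). For Scn8a the 4 tested probe sets were all lower, between -5.39 and -1.49. That at -5.39 stood at 7.1, 6.9 and 17.4 in ICAM1-positive cells. It passed the low-intensity filter only with the ICAM1-negative arrays, where it is higher. Scn2a, another channel of central axons, stood at 32.4, 9.2 and 25 in ICAM1-positive cells and at 138.1, 174.1 and 95.7 in ICAM1-negative cells. It was at least 1.37-fold lower (-2.76 ± 0.52, adjusted p = 0.00924), and its 3 tested probe sets were all lower. The call of Scn2a was lost when intensities under the array median were raised to it (-0.45, adjusted p = 0.161) and without litter 3 (adjusted p = 0.0517).

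The remaining alpha genes were dim. Scn7a, an atypical member that senses extracellular sodium rather than voltage and is known from glia, stood at 44.4, 34.4 and 23.2 in ICAM1-positive cells, against 10.9, 13.5 and 14.7 in ICAM1-negative cells. It was called higher (1.34 ± 0.29, adjusted p = 0.0149), but both populations lay below the array median on every array, so no fold is given. Scn7a passed the low-intensity filter only through its ICAM1-positive arrays, so it was tested only because it is high there. Its adjusted p was 0.0505 under the litter block, 0.112 without litter 1, 0.103 without litter 2, 0.0523 without ICAM1-negative array 1, 0.101 with a variance that trends with intensity and 0.996 with low intensities raised. Of the 4 glia markers tested, 0 were higher and 1, Mbp, was lower (adjusted p = 0.0154, but 0.107 when litter 1 was left out and 0.0863 when litter 3 was), with summed intensities of 459 to 622 in ICAM1-positive cells and 1050 to 1379 in ICAM1-negative cells. Their part in the Scn7a value was not tested. Scn11a, a channel of pain-sensing neurons (-0.86, adjusted p = 0.0646), and Scn1a, a channel of inhibitory neurons (-1.20, adjusted p = 0.431), did not pass, and Scn10a, also of pain-sensing neurons, had no probe set above the filter, with intensities between 2.7 and 22.3.

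The sodium channel genes of the alpha family that lie on chromosome 2 stand in the order Scn3a, Scn2a, Scn1a, Scn9a, Scn7a in the RefSeq gene table. There are 3 other protein-coding genes between Scn2a and Scn1a and 0 between the other neighbours. Along this order the log2 differences were -3.53, -2.76, -1.20, -3.37 and 1.34, where Scn3a, Scn2a and Scn9a were lower, Scn1a did not pass and Scn7a was called higher near background.

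Of the sodium channel beta subunits, 2 of 3 were lower, against 20.8% of all genes tested. Scn4b, whose cytoplasmic tail is known for its part in resurgent sodium current, stood at 211.8, 384.6 and 421.1 in ICAM1-positive cells, against 5496.6, 6118.7 and 7421.1 in ICAM1-negative cells. Group means were 339 ± 112 in ICAM1-positive cells and 6345 ± 982 in ICAM1-negative cells (SD, n = 3 each), 19.4-fold lower (-4.28 ± 0.31, adjusted p = 0.000338). Scn3b, a beta subunit that binds its alpha partner without a covalent bond, stood at 491.1, 656.2 and 809.9 in ICAM1-positive cells, against 7612.9, 6600.8 and 9015.2 in ICAM1-negative cells, 12.0-fold lower (-3.59 ± 0.25, adjusted p = 0.000306). Both genes stayed above the array median on every array of both populations, so these folds need no floor. Scn2b, which lies next to Scn4b on chromosome 9 with 0 protein-coding genes between them, did not pass on the probe set that stands for it (-0.11 ± 0.27, adjusted p = 0.798). A second Scn2b probe set was called higher, at 82.8, 82.6 and 82.0 in ICAM1-positive cells and 49.5, 26.6 and 37.0 in ICAM1-negative cells (adjusted p = 0.0166), and the remaining one did not pass (adjusted p = 0.459). All 3 lay below the array median on every array, so the gene has no settled direction here.

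Calcium channel pores were lower in 4 of 8 tested genes, against 20.8% of all genes tested. Cacna1d, an L-type pore that opens at relatively negative voltages, stood at 176.8, 221.7 and 252.6 in ICAM1-positive cells, against 1780.8, 1656.0 and 1960.2 in ICAM1-negative cells. Its means were 217 ± 38.1 in ICAM1-positive cells and 1799 ± 153 in ICAM1-negative cells (SD, n = 3 each), 8.36-fold lower (-3.06 ± 0.20, adjusted p = 0.000264). Its other probe set was much dimmer and did not pass (-0.54, adjusted p = 0.187). The probe set that stands for Cacna1d has a suffix by which Affymetrix marks probes shared by several transcripts. The 3 other L-type pores gave no call. Cacna1f, the L-type pore of retinal photoreceptors, stood at 147.2, 72.6 and 130.6 in ICAM1-positive cells and 87.2, 75.2 and 120.7 in ICAM1-negative cells, so that the populations overlapped (0.27 ± 0.34, adjusted p = 0.586). Cacna1c, the pore of heart and smooth muscle, did not pass (-0.77, adjusted p = 0.0557; 0.0419 after quantile normalisation, 0.0465 with arrays centred on their medians and 0.0800 under the litter block), and Cacna1s of skeletal muscle had no probe set above the filter, with intensities from 3.9 to 42.7. Of the skeletal muscle markers 0 of 5 passed, and of the smooth muscle and pericyte markers 1 of 5, Tagln, was higher (adjusted p = 0.00988; 0.0962 without litter 1 and 0.0801 without litter 3). Tagln stood at 5.0, 27.7 and 3.4 in ICAM1-negative cells and passed the low-intensity filter only with its ICAM1-positive arrays.

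Among the presynaptic Cav2 pores, Cacna1b was far lower. Cacna1b, the N-type channel of transmitter release, stood at 19.1, 147.8 and 169.9 in ICAM1-positive cells, against 2619.4, 2085.6 and 2460.2 in ICAM1-negative cells. All 3 ICAM1-positive arrays were below the lowest ICAM1-negative array by more than the spread within either population, and the litter 1 array was the dimmest. The log2 difference was -4.92 ± 0.85 (adjusted p = 0.00666), or -4.12 with intensities under the median raised to it and -3.84 without litter 1. Within litters it was -7.10, -3.82 and -3.86. A pair of further probe sets, at -5.33 and -4.80, were called lower too, and the last, near background, did not pass (-1.04). Cacna1a, the P/Q-type channel, stood at 18.6, 20.1 and 28.7 in ICAM1-positive cells and at 76.5, 55.3 and 86.1 in ICAM1-negative cells, all below the array median, and no fold is given (-1.70 ± 0.27, adjusted p = 0.00467). Its 2 other tested probe sets did not pass, at -0.38 and 1.14, and its call was lost without litter 1 (adjusted p = 0.067), with its probe sets averaged (-0.31, adjusted p = 0.296) and with low intensities raised (0.996). Cacna1e, the R-type channel, stood at 47.0, 14.6 and 43.4 in ICAM1-positive cells and at 122.2, 73.1 and 99.9 in ICAM1-negative cells. It missed the threshold (-1.64 ± 0.50, adjusted p = 0.0507), but passed under the litter block (adjusted p = 0.0266), after quantile normalisation (0.0351) and with an intensity trend (0.0288). It also passed with arrays centred on their medians (0.0344), a filter at log2 above 6 (0.0261), an offset of 32 (0.0131) and probe sets averaged (0.0414). The same held without litter 2 (0.0267) and without ICAM1-positive array 2 (0.0424). It did not pass without litter 1 (0.139) or litter 3 (0.155), without a filter (0.0655), or with low intensities raised (-0.13, adjusted p = 0.662). Nor did it pass without ICAM1-negative array 1 (0.139), 2 (0.0767) or 3 (0.121), or without ICAM1-positive array 1 (0.0534) or 3 (0.0679).

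The T-type pores gave opposite calls. Cacna1h stood at 41.5, 121.2 and 136.5 in ICAM1-positive cells, against 1310.9, 1750.9 and 1471.1 in ICAM1-negative cells. It was lower by a log2 difference of -4.09 ± 0.48 (adjusted p = 0.00156), or -3.66 with low intensities raised, and its other probe set was lower as well (-3.28). Cacna1g, by contrast, was called higher, at 80.9, 127.3 and 110.5 in ICAM1-positive cells and 8.9, 36.0 and 29.9 in ICAM1-negative cells (2.30 ± 0.56, adjusted p = 0.0238). As all ICAM1-negative arrays were below the array median, Cacna1g was at least 1.08-fold higher, a bound near no difference. Its call was lost with low intensities raised (0.22, adjusted p = 0.241), without litter 2 (0.0795), without litter 3 (0.111) and without ICAM1-positive array 2 (0.0707) or 3 (0.0694).

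**Figure D2:**
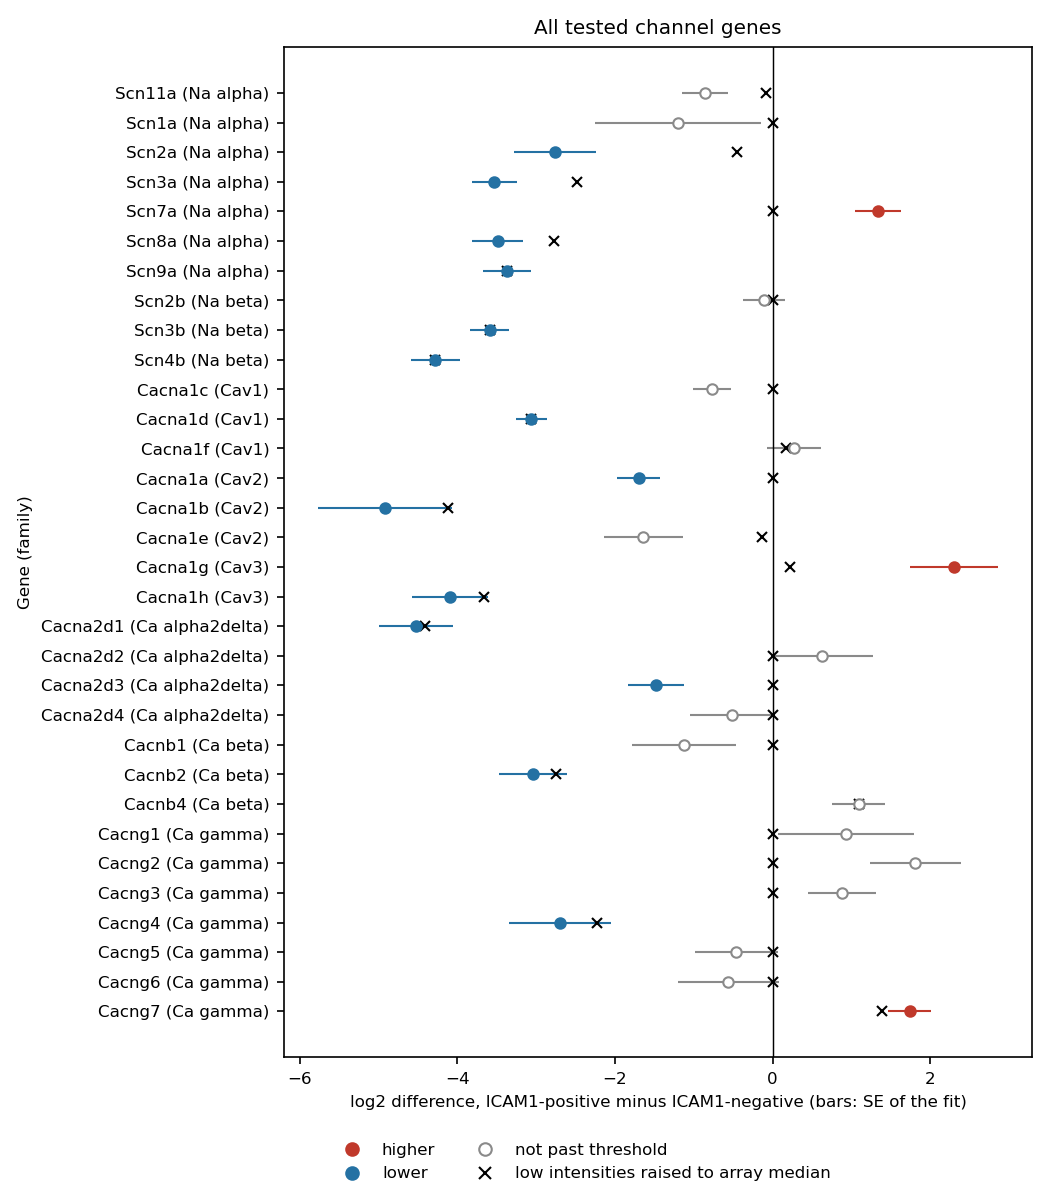
Log2 difference, ICAM1-positive minus ICAM1-negative, of the 32 tested channel genes by family, with bars for the standard error of the fit (3 arrays per population). Filled points passed an adjusted p of 0.05, and crosses give the difference after intensities below the array median were raised to it, which is 0 for the 13 genes that lay below the median on every array. The crosses stay beyond -2 for Scn3a, Scn8a, Scn9a, Scn3b, Scn4b, Cacna1d, Cacna1b, Cacna1h, Cacna2d1, Cacnb2 and Cacng4.

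Of the alpha2delta subunits, which carry channels to the membrane, Cacna2d1 was lower on all 5 of its probe sets. The probe set that stands for Cacna2d1, the subunit bound by gabapentin, gave 81.2, 93.9 and 236.7 in ICAM1-positive cells, against 3805.6, 2112.5 and 2710.9 in ICAM1-negative cells. The log2 difference was -4.52 ± 0.47 (adjusted p = 0.000977), -4.41 with low intensities raised, and the 5 probe sets ran from -4.74 to -2.94. That at -2.94 stood at 2.0, 8.3 and 24.5 in ICAM1-positive cells. It passed the low-intensity filter only with the ICAM1-negative arrays, where it is higher. Cacna2d3 stood at 18.7, 21.8 and 11.6 in ICAM1-positive cells and at 31.8, 62.2 and 52.0 in ICAM1-negative cells, below the array median throughout (-1.48 ± 0.36, adjusted p = 0.0232). That call was lost without any one of the 3 litters (adjusted p = 0.0538, 0.0811 and 0.152 without litters 1, 2 and 3), without ICAM1-negative array 2 (0.0678) or 3 (0.0717), without ICAM1-positive array 1 (0.0543) or 3 (0.0626), with an intensity trend (0.0512) and with low intensities raised (0.996). Cacna2d2, an alpha2delta subunit of cerebellar neurons (0.63, adjusted p = 0.502), and Cacna2d4, one of the retina (-0.51, adjusted p = 0.517), did not pass.

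Of the cytoplasmic beta subunits, which bind the I-II linker of the pore and help bring it to the surface, 1 of 3 tested genes was lower and 2 did not pass. Over all genes tested 20.8% were lower, so this short list with 1 call is not set apart. Cacnb2 stood at 56.3, 100.5 and 170.1 in ICAM1-positive cells, against 955.4, 667.4 and 836.2 in ICAM1-negative cells (-3.04 ± 0.43, adjusted p = 0.00293; -2.75 with low intensities raised), and its other probe set was lower too (-3.38). Cacnb4 had higher values in ICAM1-positive cells on all 3 of its probe sets, 1 of which passed. The probe set that stands for Cacnb4 gave 285.6, 372.1 and 272.5 in ICAM1-positive cells and 125.2, 231.2 and 103.9 in ICAM1-negative cells, populations that did not overlap (1.09 ± 0.34, adjusted p = 0.0542). It passed under the litter block (adjusted p = 0.0286), with low intensities raised (0.0203), without litter 2 (0.0250) and without ICAM1-negative array 2 (0.0122). It also passed with a filter at log2 above 6 (0.028), an offset of 32 (0.021), an intensity trend (0.0223) and probe sets averaged (0.0257). It did not pass without litter 1 (0.235) or litter 3 (0.206), after quantile normalisation (0.0604) or median centring (0.0610), without a filter (0.071), or without any other single array (0.1 to 0.145). The Cacnb4 probe set that passed in the unpaired fit gave 301.3, 282.9 and 337.8 in ICAM1-positive cells and 130.2, 115.8 and 70.5 in ICAM1-negative cells (1.59, adjusted p = 0.00667), and the remaining one gave 1.92 (adjusted p = 0.123). Cacnb1, the beta subunit of skeletal muscle, did not pass (-1.13, adjusted p = 0.245). Its other tested probe sets did not pass either, at -1.1 and 1.76, so they differ in sign. The one at 1.76 passed under the litter block (adjusted p = 0.0392) but lay below the array median on every array.

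The gamma family holds skeletal muscle subunits and a larger group better known as auxiliary proteins of AMPA-type glutamate receptors. Of its 7 tested genes 1 was lower, 1 was higher and 5 did not pass. These counts are not set apart from the shares over all genes, 20.8% lower and 20.6% higher. Cacng4, an AMPA receptor partner, stood at 232.5, 122.4 and 37.7 in ICAM1-positive cells, against 642.5, 669.2 and 681.4 in ICAM1-negative cells (-2.70 ± 0.65, adjusted p = 0.0224; -2.23 with low intensities raised). The 3 ICAM1-positive arrays spread widely while the 3 ICAM1-negative arrays were nearly equal. The Cacng4 call was lost without litter 2 (adjusted p = 0.129), without any one ICAM1-negative array (0.0634 to 0.0656) or without ICAM1-positive array 2 (0.0514), while its second probe set was lower (-1.13, adjusted p = 0.00915) but not without litter 1 (0.0801), without litter 3 (0.088) or with low intensities raised (-0.27, adjusted p = 0.249). Cacng7, another AMPA receptor partner, was called higher, at 262.2, 244.2 and 300.2 in ICAM1-positive cells and 74.0, 114.2 and 61.1 in ICAM1-negative cells. Its log2 difference was 1.74 ± 0.27 (adjusted p = 0.00464), or 1.39 with low intensities raised (adjusted p = 9.66e-05). Within the litters it was 1.83, 1.10 and 2.30. The other Cacng7 probe set did not pass (0.88, adjusted p = 0.500). The Cacng7 call was lost without litter 1 (0.0647), without litter 3 (0.0535) and with probe sets averaged (0.107). Cacng1, Cacng2, Cacng3, Cacng5 and Cacng6 lay below the array median on every array, and Cacng8 had no probe set above the filter, with intensities from 2.8 to 32.9. The probe sets of Cacng5 differed in sign, at -0.46 and 1.86. Neither passed, but the one at 1.86 did under the litter block (adjusted p = 0.0404). Horizontal basal cell and macrophage markers were higher in the same arrays as Cacng7 and Cacnb4, and their part in these values was not tested.

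**Figure D3:**
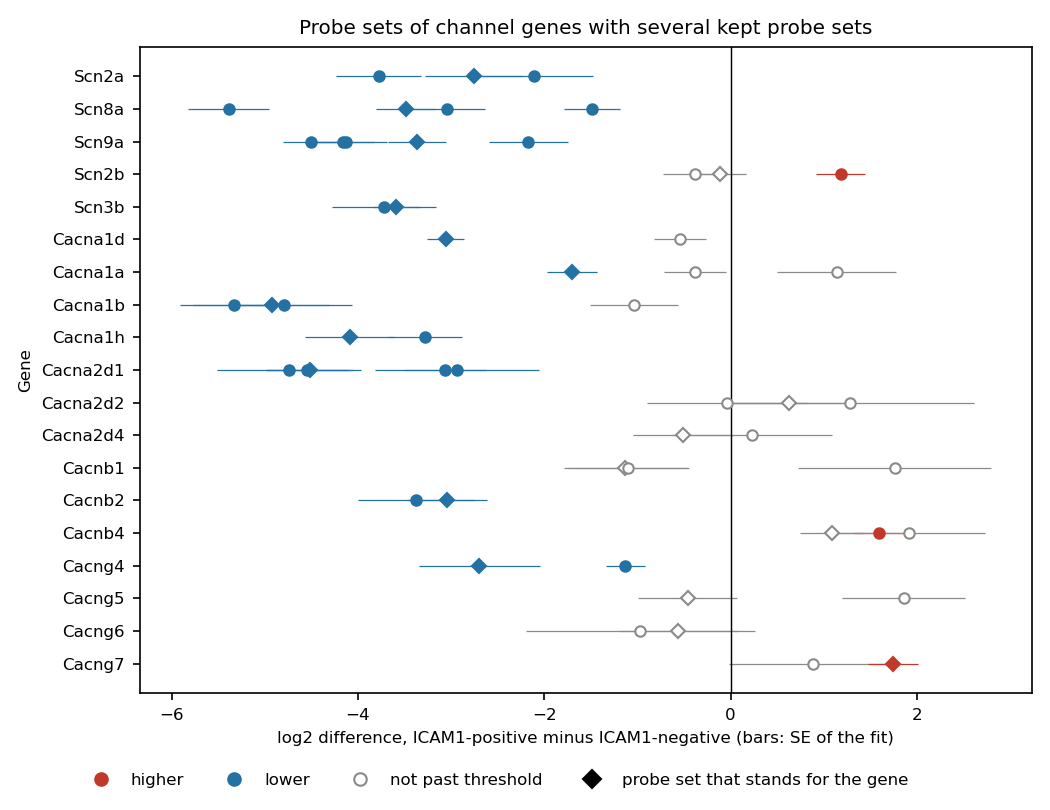
Log2 difference, ICAM1-positive minus ICAM1-negative, of each kept probe set of the 19 channel genes with 2 or more of them, with bars for the standard error of the fit and diamonds for the probe set that stands for the gene. In 9 genes 2 or more probe sets passed, and in all 9 those that passed lay on the lower side. Some of these, such as further probe sets of Scn8a, Cacna2d1 and Scn3b, met the low-intensity filter only with the ICAM1-negative arrays, where they are higher. In 4 of the called genes, Cacna1a, Cacna1b, Cacna1d and Cacng7, a further kept probe set did not pass.

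Some calls of further probe sets depended on the setting. Those of Scn9a at -2.17, Scn8a at -1.49, Scn2a at -2.11 and Cacna2d1 at -2.94 were lost with low intensities raised (adjusted p = 0.0924 for Scn9a and 0.996 for the other 3) and without litter 2 (0.075, 0.0903, 0.162 and 0.193 in that order of genes). Of these probe sets, those of Scn9a (adjusted p = 0.0529), Scn2a (0.1) and Cacna2d1 (0.0999) also did not pass without litter 1. That of Scn8a did not pass without litter 3 (0.0506), nor that of Cacna2d1 under the litter block (0.0554). The second Cacnb2 probe set did not pass without litter 1 (0.0599). The higher Scn2b probe set did not pass without litter 2 (0.0626), without litter 3 (0.124) or with low intensities raised (0.996).

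The 12 tested genes that neither passed nor had a population mean above 96.6, the mean of the array medians, had single intensities from 2.8 to 112.9 and log2 differences from -1.20 to 1.81. A p that misses the threshold does not show that the populations are equal for these genes, and some passed under single alternatives, such as Scn11a with a filter at log2 above 6 (adjusted p = 0.0343) and Cacng2 with an offset of 32 (0.0311).

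The differences within litters are given for a few called members. For Scn3a they were -3.94, -3.47 and -3.19 in litters 1, 2 and 3, for Scn9a -3.92, -3.46 and -2.73, for Scn4b -4.70, -3.99 and -4.14, and for Cacna1d -3.33, -2.90 and -2.96. The litters lay further apart for Cacng4 (-1.47, -2.45 and -4.18) and Cacna2d1 (-5.55, -4.49 and -3.52). Of the 17 called genes, 10 kept their call and direction under every alternative tried, and these were Scn3a, Scn8a, Scn9a, Scn3b, Scn4b, Cacna1d, Cacna1b, Cacna1h, Cacna2d1 and Cacnb2. All 10 were lower in ICAM1-positive cells, in the same arrays in which 7 of 8 mature neuron markers and 9 of 9 immature neuron markers were lower (medians -3.68 and -3.86). The part of the share of neurons in each population in these values was not tested.

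**Figure D4:**
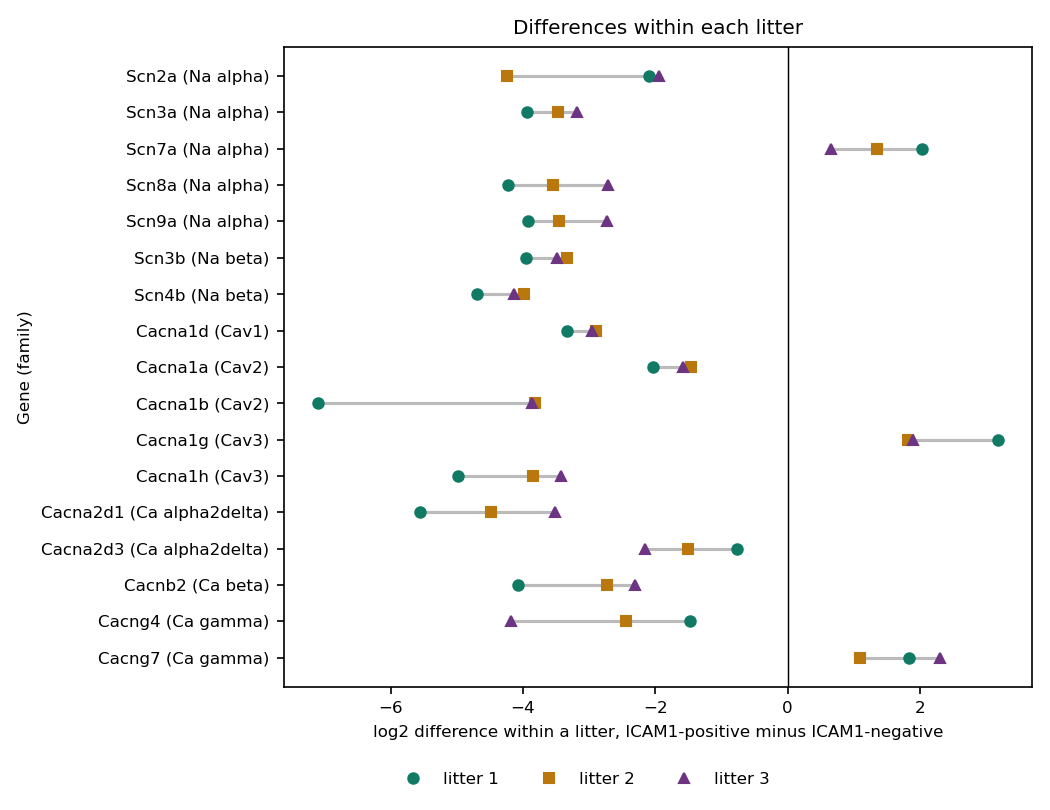
Log2 difference, ICAM1-positive minus ICAM1-negative, within litters 1, 2 and 3 for the 17 called channel genes, each litter with its own symbol and a grey line over the range. Each gene has the same sign in all 3 litters, which follows from populations that do not overlap and adds no support. Over all genes tested, 38.7% were lower and 34.9% higher in every litter. The widest range is that of Cacna1b, from -7.10 to -3.82.

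Genes whose products bind, place or answer to these channels were examined as 5 lists, with 58 of 67 entries tested. In ICAM1-positive cells 24 of the 58 were lower and 11 higher, and 23 missed the threshold. The shares over all genes tested were 20.8% lower and 20.6% higher. Lower calls numbered 15 without litter 1 and 14 without litter 3, and higher calls 7 without litter 3. Of the 13 sodium channel partners tested, 8 were lower and 2 higher (median -1.75). Fgf12, a fibroblast growth factor homologous factor that binds the tail of sodium channels, stood at 389.8, 644.5 and 552.7 in ICAM1-positive cells, against 4461.0, 4872.1 and 4098.3 in ICAM1-negative cells (-3.11 ± 0.24, adjusted p = 0.000383). Its relative Fgf13 went the other way, at 682.2, 679.3 and 842.7 in ICAM1-positive cells and 111.3, 70.0 and 128.7 in ICAM1-negative cells (2.87 ± 0.28, adjusted p = 0.000758). Neither pair of populations overlapped. The scaffolds that hold sodium channels at the axon initial segment were lower, with Ank3, which encodes ankyrin-G, at -1.62 ± 0.28 (adjusted p = 0.00678; 0.0753 without litter 1) and Sptbn4, which encodes beta-IV spectrin, at -2.43 ± 0.32 (adjusted p = 0.00229). Among the adhesion molecules that bind those scaffolds or the channels, Cntn1 was at least 9.58-fold lower, L1cam lower by -3.01 ± 0.25 and Nfasc at least 2.54-fold lower. Nrcam, of the same family as L1cam and Nfasc, was higher, at 13299.2, 14851.1 and 12424.6 in ICAM1-positive cells and 169.7, 219.1 and 214.6 in ICAM1-negative cells (6.08 ± 0.19, adjusted p = 0.000124).

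Of 16 calcium channel regulators and presynaptic partners 7 were lower and 2 higher (median -1.23), against 20.8% lower and 20.6% higher over all genes. Rims1, an active zone protein that tethers calcium channels to the release site, was at least 6.97-fold lower, and its paralog Rims2 lower by -3.41 ± 0.22 (adjusted p = 0.000244). Camk2d, a subunit of the calcium- and calmodulin-dependent kinase, stood at 278.0, 799.4 and 1138.4 in ICAM1-positive cells, against 10724.1, 11522.1 and 12204.8 in ICAM1-negative cells (-4.18 ± 0.53, adjusted p = 0.00196). The higher genes were Ahnak, a very large scaffold protein that binds calcium channel beta subunits, and Rrad, a small GTPase that inhibits L-type channels. Ahnak stood at 14457.3, 12427.2 and 10863.6 in ICAM1-positive cells and at 61.8, 140.1 and 95.4 in ICAM1-negative cells (7.06 ± 0.33, adjusted p = 0.000156). Rrad passed the low-intensity filter only through its ICAM1-positive arrays. Rrad lay below the array median in both populations (4.36 ± 0.76, adjusted p = 0.00667; 0.0827 without litter 2, 0.0556 without litter 3 and 0.996 with low intensities raised), so no fold is given. Of the sodium leak channel complex, a voltage-insensitive relative of these pores, Nalcn and its partner Unc80 were both called lower near background, Nalcn at least 1.03-fold and Unc80 at least 1.06-fold, and both lost the call with low intensities raised (adjusted p = 0.996 for Nalcn and 0.713 for Unc80).

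Genes of intracellular calcium stores and calcium removal gave 4 higher and 3 lower calls among 18 tested (median 0.05). These counts are near the shares over all genes, 20.6% higher and 20.8% lower. The inositol trisphosphate receptor genes Itpr3 (2.52 ± 0.34, adjusted p = 0.00263) and Itpr2 (2.04 ± 0.19, adjusted p = 0.000688) and the store calcium sensor Stim1 (1.21 ± 0.19, adjusted p = 0.00418) were higher in ICAM1-positive cells. Also higher, the ryanodine receptor gene Ryr1, lay below the array median on every array and lost its call under the litter block (adjusted p = 0.0706), without litter 1 (0.126) and without litter 3 (0.0882). Ryr1 stood at 6.2, 16.7 and 2.5 in ICAM1-negative cells and passed the low-intensity filter only with its ICAM1-positive arrays. The sodium-calcium exchanger Slc8a1 was lower, at 171.3, 182.9 and 187.6 in ICAM1-positive cells, against 2189.5, 2210.4 and 1148.0 in ICAM1-negative cells (-3.29 ± 0.30, adjusted p = 0.000621). Atp2a2, the calcium pump of the endoplasmic reticulum in most cells, did not pass (-0.03 ± 0.18, adjusted p = 0.931).

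Rest encodes a zinc finger repressor that keeps neuronal genes, Scn2a among them, silent in other cells. It stood at 1170.1, 828.0 and 1030.3 in ICAM1-positive cells, against 135.4, 157.2 and 179.3 in ICAM1-negative cells (2.68 ± 0.21, adjusted p = 0.000426), with no overlap. Of the 9 genes of REST and its cofactors 3 were higher and 4 lower (median 0.47), against 20.6% higher and 20.8% lower over all genes. The corepressor genes Rcor1 (-1.40 ± 0.17, adjusted p = 0.00191) and Rcor3 (1.26 ± 0.20, adjusted p = 0.00489; 0.0639 without litter 1 and 0.0522 without litter 3) differed in direction. The higher call of Sin3a (0.58 ± 0.17, adjusted p = 0.0413), a further corepressor, was lost under the litter block (0.0619) and without litter 1 (0.251), 2 (0.148) or 3 (0.126).

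**Figure D5:**
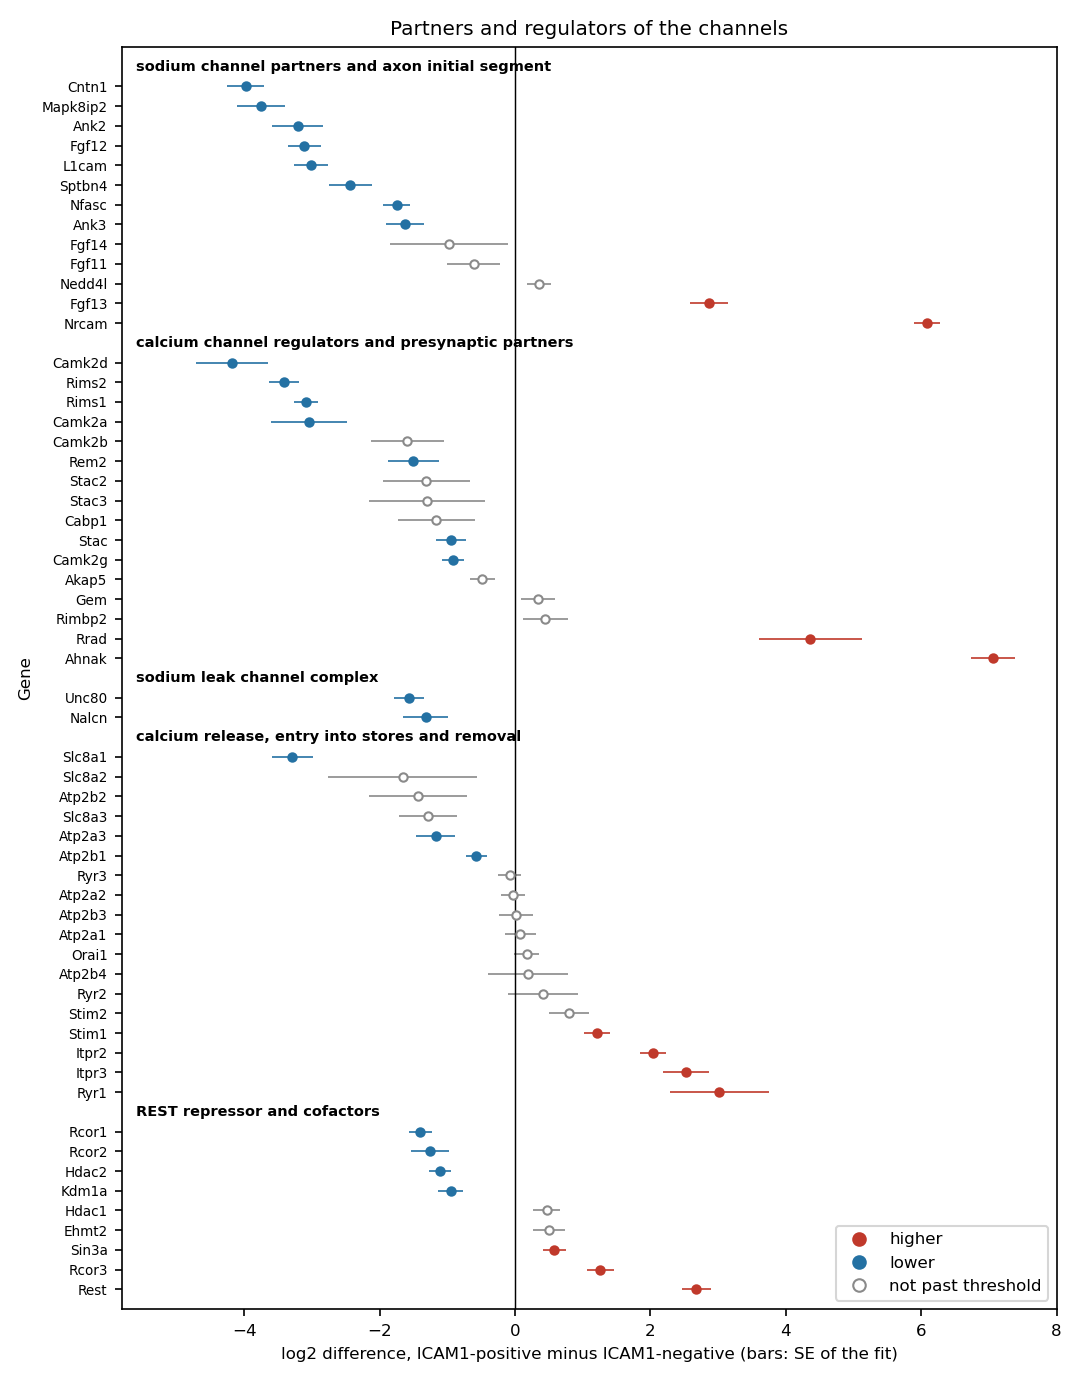
Log2 difference, ICAM1-positive minus ICAM1-negative, of the 58 tested partner genes in their 5 lists, with bars for the standard error of the fit and filled points for genes past an adjusted p of 0.05. Nrcam at 6.08 and Ahnak at 7.06 stand apart on the higher side, and Camk2d at -4.18 and Cntn1 at -3.98 are at the lower end.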

How the data were processed

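The 6 arrays were Affymetrix mouse genome arrays. The authors deposited linear intensities with 1 decimal; per the labels the data were normalised with GCRMA, but the values are not log2, differ in their quantiles, and have a mean of 500 after 2% trimming at each end on every array, the form of scaled signals. No source used here names the program or holds detection calls. Scan dates were not used here.

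Intensities were transformed to log2 and the 64 control probe sets left out, and 38694 probe sets with log2 above 4 (intensity 16) on at least 3 arrays were kept. Names came from the platform table (34945 probe sets with 1 gene, 932 with several, 9160 with none listed). All 85 channel probe sets had an Entrez ID in the RefSeq table (GRCm38.p6), and 0 symbols changed. limma 3.58.1 (R 4.3.3; lmFit, eBayes without a trend or block, tested on simulated data) compared the populations two-sided as ICAM1-positive minus ICAM1-negative. P-values were Benjamini-Hochberg adjusted over all kept probe sets, with a threshold of 0.05. Where the dimmer population lay below the array median on all its arrays, the fold is a bound against that median, and where both did, none is given.

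Every channel gene that passed, or had a population mean above the mean array median, has its values on every array. Members, partner lists and marker lists were chosen with earlier results of these data known. The series text ties each replicate number to 1 litter. Deviations of same-numbered arrays correlated at 0.127, 0.199 and 0.0812. The number of arrays limits the precision, and p-values rest on the spread between 3 litters.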

Additional observations from a re-analysis of the deposited data

How the results depend on the processing

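Alternatives were quantile normalisation, arrays centred on their medians, no filter, a stricter filter (log2 above 6), low intensities raised to the array median, an offset of 32, an intensity trend, probe sets averaged per gene, litter as a replicate block, and leaving out each litter or array. No call among the channel genes was reversed by any of these. Called lower were 11 to 16 channel genes without leaving anything out and 12 to 15 when leaving out a litter or array, against 14. Higher channel genes numbered 5 with the offset, and 1 to 5 when leaving out a litter or array. Higher channel probe sets numbered 3 with low intensities raised, 9 with the offset, and 2 to 7 when leaving out. Partner genes numbered 7 to 11 higher and 14 to 24 lower when leaving out. With litter as a replicate block, 15 channel genes were lower and 3 higher, and 24 partner genes were lower and 10 higher. Scn7a (adjusted p = 0.0505) was lost, and Cacna1e and Cacnb4 were gained, while the calls of the other channel genes held. Without detection calls, intensities under the array median cannot be ordered, which limits the 13 genes that lay below it on every array.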
